A study of Mus musculus with 30 samples.

Results

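The Dlx homeobox genes Dlx1 to Dlx6 were followed in 30 mouse tumors, as 6 of the 48440 genes in the count table. They were taken by gene symbol, and the family was chosen by its measured levels in the tumor lines compared here, so differences of its members between lines are given as a description, and nothing is read from any call on them. The tumors grew from 5 primary fibrosarcoma cell lines, each passaged from a tumor that the carcinogen methylcholanthrene (MCA) had induced in a mouse, and CD45 beads were used to deplete leukocytes before RNA was extracted. The study classes MCA-943 (4 tumors) and MCA-969 (8 tumors) as non-sensitive to control by NK1.1+ cells, and MCA-948 (8 tumors), MCA-970 (6 tumors) and MCA-972 (4 tumors) as sensitive. All growth was in mice of the C57BL/6 background; the strain is labelled Ncr1Cre for the MCA-943 tumors and Ncr1Cre R26DTA for the tumors of the other 4 lines. In Ncr1Cre mice the Ncr1 promoter, active in NK cells and related innate lymphoid cells, drives Cre, and R26DTA adds a diphtheria toxin gene that Cre switches on. The strain label therefore follows the line, and the study uses such genotypes for the mice that were given MCA. It names C57BL/6 mice, some of them given an antibody that depletes NK1.1+ cells, as recipients of the lines. The series describes its hosts as wild-type and NK cell-deficient, and no label assigns a tumor to either. The age of the mice is not given in the sources used here. Titles also carry a letter, W or a, whose meaning the sources do not state. Each line comes from 1 primary tumor, so its transplanted tumors show the spread within that line and not between lines of the same sensitivity.

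Dlx genes encode homeodomain transcription factors related to the Distal-less gene of the fruit fly. In mammals they lie as neighboring pairs whose members point towards each other and share enhancers, and the partners of a pair are often active in the same cells. They are best known for patterning the jaws and limbs and, in the case of Dlx1, Dlx2, Dlx5 and Dlx6, for the development of inhibitory interneurons of the forebrain. Dlx3 and Dlx4 are known from skin, tooth and placenta.

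In the GRCm38 annotation, Dlx1 lies on chromosome 2 from 71528113 to 71533981 on the forward strand and Dlx2 from 71543408 to 71546754 on the reverse strand, 9.43 kb apart. Dlx3 and Dlx4 lie on chromosome 11, from 95120119 to 95125296 and from 95140447 to 95146263, with 15.2 kb between them. Dlx6 and Dlx5 lie on chromosome 6, from 6863334 to 6868568 and from 6877805 to 6882085, with 9.24 kb between them. All 6 are protein coding.

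Promoter sequences are shown for Dlx1 and Dlx2, the 2 members with a promoter entry. The RefSeq promoter table for GRCm38.p6 gave a window of 300 bases for these 2 members, from 250 bases before to 50 after a transcription start. The Dlx1 window is chr2:71529195-71529494 on the forward strand, at a start inside the annotated gene, and the Dlx2 window is chr2:71546705-71547004 on the reverse strand. Capitals mark matches on either strand to 5 motifs, which are the homeodomain core TAATTA, the promoter element TATAAA, the CCAAT box, the Sp-family motif GGGCGG and the E-box motif CACGTG.
Dlx1: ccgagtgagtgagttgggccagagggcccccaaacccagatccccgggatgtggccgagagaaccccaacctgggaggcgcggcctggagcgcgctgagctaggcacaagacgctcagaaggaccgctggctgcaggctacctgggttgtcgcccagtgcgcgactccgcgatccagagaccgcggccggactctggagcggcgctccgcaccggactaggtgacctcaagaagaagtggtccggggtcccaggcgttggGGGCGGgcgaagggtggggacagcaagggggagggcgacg
Dlx2: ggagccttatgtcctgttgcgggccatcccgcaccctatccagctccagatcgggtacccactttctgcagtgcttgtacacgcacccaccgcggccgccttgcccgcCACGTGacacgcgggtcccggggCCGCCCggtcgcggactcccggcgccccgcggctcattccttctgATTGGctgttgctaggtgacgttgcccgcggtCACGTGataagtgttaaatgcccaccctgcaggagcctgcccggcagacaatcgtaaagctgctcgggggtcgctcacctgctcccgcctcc
The Dlx1 window held GGGCGG once, after the start, and none of the other motifs. The Dlx2 window held CCAAT once and GGGCGG once, each in its reverse complement, and CACGTG in 2 places, all before the start; the matches did not overlap. Of the 32851 promoter windows in the table, 35.7% held GGGCGG, 37.4% CCAAT, 7.15% CACGTG, 13.6% TATAAA and 5.29% TAATTA. Both windows were rich in G and C, with 69.3% for Dlx1 and 66.3% for Dlx2 against a median of 52.7% over all windows. The ratio of observed to expected CpG was 0.767 and 0.898, against a median of 0.384.

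Per tumor, genes received from 27745104 to 46537062 counts. Levels are given as CPM, counts per 1000000 after TMM normalization, in which a count of 3, the upper limit taken for a gene at 0, was 0.0792 CPM on average in MCA-972 and 0.0908 CPM in MCA-970. Such limits and the intervals below cover counting error only. Mesenchymal markers (Col1a1, Col1a2, Col3a1, Vim, Pdgfrb and Thy1) were detected in every line, with summed levels from 8819 to 60156 CPM. The 8 leukocyte markers summed to between 11.5 and 254 CPM and the 6 keratinocyte markers to between 1.10 and 9.25 CPM, with Krt1 at 0 in all lines but MCA-969. Endothelial markers summed to 251 to 454 CPM in MCA-970 and 15.7 to 313 CPM elsewhere, and bone and cartilage markers to 88.3 to 162 CPM in MCA-972 and 0.495 to 37.5 CPM elsewhere. The sum in MCA-972 was almost wholly that of 1 gene, the cartilage proteoglycan gene Acan, at 126 CPM on average, while Sp7, Bglap and Col2a1 had their highest means in other lines. Schwann cell markers summed to at most 17.8 CPM and adipocyte markers to at most 0.196 CPM. The MCA-969 tumor W-2D was the least like its line, with a mean correlation of 0.968 with the other 7. Its mesenchymal markers summed to 8819 CPM, against 12763 to 15877 CPM in the other 7, and its skeletal muscle markers to 12.9 CPM, against 3.45 to 6.52 CPM. Its bone and cartilage markers summed to 0.495 CPM, against 1.68 to 4.26 CPM, and its leukocyte markers to 11.5 CPM, against 12.7 to 48.9 CPM. The labels also call W-2D and the MCA-969 tumor W-1D sensitive, against the class of their line, and both were kept in MCA-969.

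In both non-sensitive lines Dlx1 and Dlx2 were the most abundant members, per length too, and their means were higher there than in all 3 sensitive lines. For Dlx1 the MCA-943 tumors averaged 5.45 CPM ± 0.535 (SD, n = 4), those of MCA-969 1.49 ± 0.820 (SD, n = 8), and the level was no more than 0.263 CPM on average in any sensitive line. Dlx2 stood at 7.42 CPM ± 0.854 (SD, n = 4) and 7.98 ± 3.67 (SD, n = 8) in those lines, and at no more than 0.988 CPM on average in a sensitive line. Without W-2D the MCA-969 means were 1.68 ± 0.677 for Dlx1 and 8.76 ± 3.16 for Dlx2 (SD, n = 7). The tumors of MCA-943 were more alike, with a coefficient of variation of 9.83% for Dlx1 and 11.5% for Dlx2, against 54.9% and 46.0% in MCA-969, or 40.3% and 36.0% without W-2D. Bulk RNA does not tell fewer cells that express a gene from less RNA per cell.

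The 4 MCA-943 tumors had Dlx1 at 5.49 CPM in W-2G, 6.17 in a-1D, 4.91 in a-1G and 5.22 in a-R. The MCA-969 tumors ranged from 0.186 to 2.83 CPM with a median of 1.54. The highest was W-R, and the lowest was W-2D, at 6 counts; the next lowest was a-R at 0.912 CPM. MCA-943 thus lay wholly above MCA-969. In MCA-970 Dlx1 ranged from 0.153 to 0.435 CPM around a median of 0.221, and in MCA-948 from 0.0676 to 0.266 around a median of 0.136. The MCA-972 tumors had 0.0521 CPM in 2G, 0.109 in a-1, 0.0245 in a-1G and 0.139 in a-R, from 1 to 5 counts each. The order of the means was MCA-943, MCA-969, MCA-970, MCA-948 and MCA-972, and the 3 sensitive lines overlapped as neighbors in that order. W-2D fell within the range of MCA-970 and MCA-948; without it, the lowest non-sensitive tumor was above the highest sensitive one, MCA-970 W-1D at 0.435 CPM.

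Dlx2 was at 6.57 CPM in MCA-943 W-2G, 6.93 in a-1D, 8.50 in a-1G and 7.67 in a-R. In MCA-969 it ranged from 2.48 in W-2D to 13.9 CPM in W-R, with a median of 7.81. These 2 lines overlapped, the MCA-943 tumors lying inside the range of MCA-969. The sensitive lines were ordered without overlap. MCA-970 ranged from 0.725 to 1.21 CPM with a median of 1.03, and MCA-948 from 0.374 to 0.633 CPM with a median of 0.497. In MCA-972 Dlx2 had 0 counts in 2G and a-1 and 1 count in each of a-1G and a-R, 0.0245 and 0.0278 CPM. All 12 non-sensitive tumors were above all 18 sensitive tumors for Dlx2, which held for 0.777% of the 16862 genes past the filter on low counts. It was the case for 1 of the 6 members, and W-2D was the only non-sensitive tumor of Dlx1 below the highest sensitive one.

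**Figure D1:**
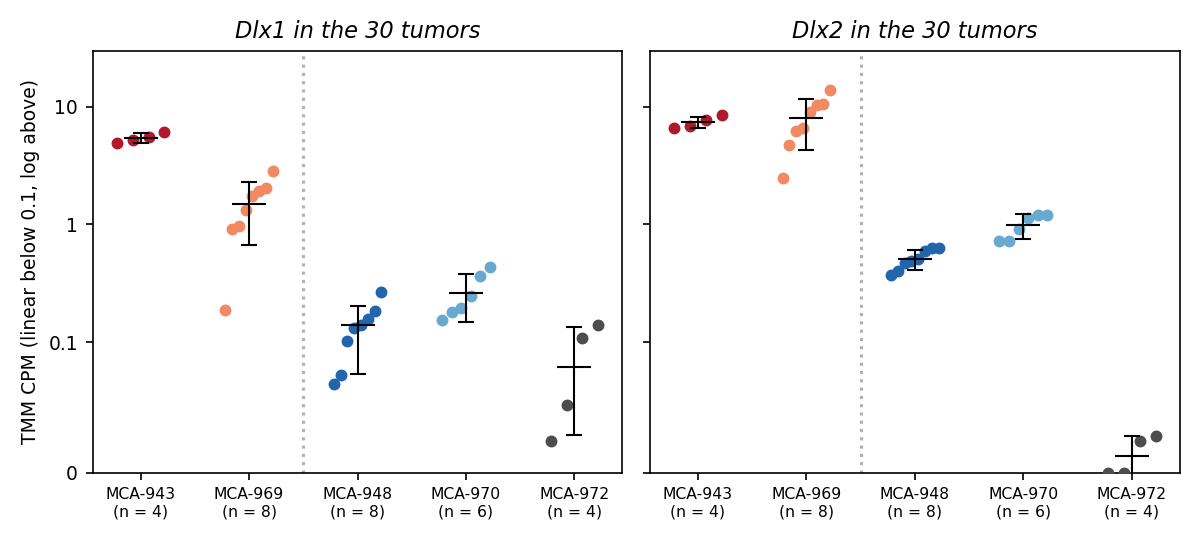
TMM CPM of Dlx1 (left) and Dlx2 (right) in every tumor, on an axis that is linear below 0.1 and logarithmic above; points are tumors, sorted within each line, and bars are the line mean ± SD, with the 2 non-sensitive lines left of the dotted line. Dlx2 separates the 12 non-sensitive tumors from the other 18, whereas 1 MCA-969 tumor, W-2D at 0.186 CPM of Dlx1, sits among the sensitive tumors.

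The study compared each non-sensitive line with each sensitive line, which gives 6 comparisons. These are not independent, since each line enters several of them. Dlx1 differed on the fitted log2 scale by 5.24 (SE 0.41) between MCA-943 and MCA-948, by 4.37 (SE 0.43) against MCA-970 and by 6.04 (SE 0.57) against MCA-972. For MCA-969 the differences were 3.38 (SE 0.37), 2.503 (SE 0.389) and 4.17 (SE 0.54). Dlx1 was thus further from the sensitive lines in MCA-943, where its mean was 3.65 times that of MCA-969. Dlx2 differed by 3.85 (SE 0.28) and 2.91 (SE 0.30) between MCA-943 and, in turn, MCA-948 and MCA-970. It differed by 3.96 (SE 0.26) and 3.02 (SE 0.28) between MCA-969 and the same lines. Against MCA-972 the fitted differences, 8.80 and 8.91, rest on 2 counts in that line. The ratio of summed counts was 560 for MCA-943, with a 95% counting interval from 155 to 4629, and 602 for MCA-969, with an interval from 166 to 4973. For Dlx2, MCA-943 and MCA-969 differed little, with a ratio of means of 0.930.

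Under edgeR's quasi-likelihood test with Benjamini-Hochberg adjustment over all genes, 3 of the 6 members passed the filter, Dlx1, Dlx2 and Dlx4. A gene was called as differing among the lines at an adjusted p-value under 0.05 and a spread of at least 1 on the log2 scale between the highest and the lowest line. This call was met by 2 members, Dlx1 and Dlx2, and by 58% of all genes tested. The same 2 members were called higher in all 6 comparisons, as were 0.652% of genes, and 0 members were called lower in all 6, as were 0.225%. As the members were chosen by this contrast, nothing is read from these counts. The study's own list of genes higher in non-sensitive tumors holds Dlx2 and not Dlx1. With line means below the level of 3 counts set to that level, the spread among the line means was 6.07 for Dlx1, 6.65 for Dlx2 and 1.25 for Dlx4 on the log2 scale of mean CPM, beside a median of 1.19 over all genes tested. For Dlx2 and Dlx4 the lowest line was below that level, so their values are lower limits.

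Levels of different genes can be set against each other only per length, here as CPM per kb of the gene length in the table. On that scale Dlx2 was at 2.60 ± 0.299 (SD, n = 4) in MCA-943 and 2.79 ± 1.29 (SD, n = 8) in MCA-969, and Dlx1 at 1.01 ± 0.0992 and 0.277 ± 0.152. These were below the medians of all genes tested, 3.69 CPM per kb in MCA-943 and 3.57 in MCA-969. Dlx2 was also above Dlx1 per length in MCA-948, at 0.179 against 0.0260, and in MCA-970, at 0.346 against 0.0487. In MCA-972 both were near 0.

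The balance of the pair differed between the non-sensitive lines. Of the counts for Dlx1 and Dlx2 together, Dlx1 held 42.4% ± 4.78 (SD, n = 4) in MCA-943, from 36.6% to 47.1%. In MCA-969 it held 14.96% ± 4.32 (SD, n = 8), from 6.98% in W-2D to 21.96% in a-2D, so the lines did not overlap. The shares in MCA-948, 21.1% ± 7.53 (SD, n = 8), and MCA-970, 21.1% ± 8.86 (SD, n = 6), overlapped those of MCA-969. In MCA-972 Dlx1 had 12 counts and Dlx2 had 2 over all 4 tumors, a share of 85.7% with a 95% Wilson interval from 60.1% to 96.0%.

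**Figure D2:**
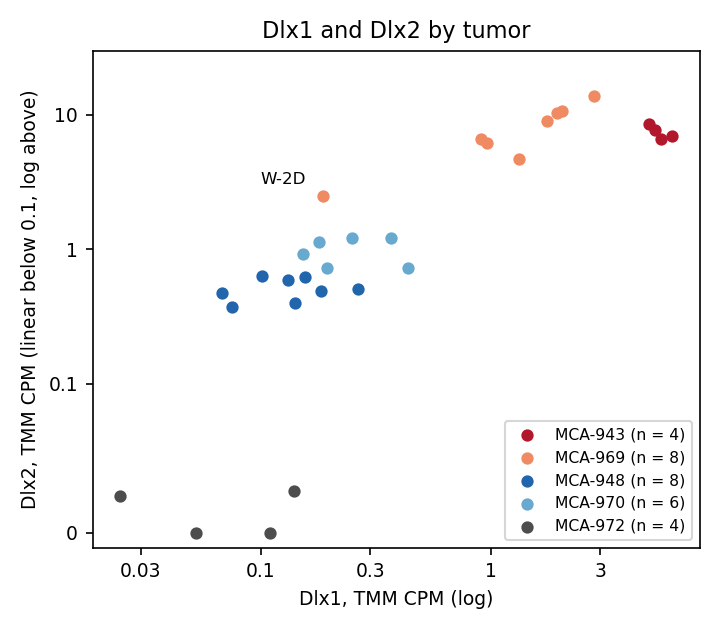
Dlx2 (vertical, linear below 0.1 and logarithmic above) against Dlx1 (horizontal, logarithmic) in TMM CPM, with 1 point per tumor colored by line. The MCA-943 tumors have Dlx1 of 4.91 to 6.17 CPM and Dlx2 inside the range of MCA-969. No MCA-969 tumor has Dlx1 above 2.83 CPM, and W-2D lies towards the sensitive lines.

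Within a line, which the choice of the family did not use, the partners could be compared where a line had at least 6 tumors and both genes a median count of at least 10. This held for 1 of 9 combinations of pair and line, Dlx1 with Dlx2 in MCA-969. Over its 8 tumors, log2 CPM of the partners rose together, with Pearson's r = 0.936 (p = 0.0011, two-sided exact permutation test) and Spearman's rho = 0.905 (p = 0.0046, exact permutation). With 1 relation in the family, the adjusted values are the same. Without the 2 tumors farthest from the median of Dlx1, W-2D and W-R, r was 0.748 (p = 0.10, exact permutation, n = 6), so the relation past the threshold rests on those tumors. Without W-2D alone r was 0.845 (p = 0.017, exact permutation, n = 7). Library numbers were grouped into 3 runs of consecutive or nearly consecutive numbers, a grouping chosen here. No label says that the runs were sequenced apart. Of the 8 tumors, 6 had numbers of 1 run and W-1D and W-2D those of another; within the run of 6, r was 0.831 (p = 0.036, exact permutation) and rho 0.771 (p = 0.10, exact permutation). The lower mesenchymal, bone and cartilage, and leukocyte marker levels and the higher muscle marker level of W-2D go with its low Dlx1 and Dlx2, and their part in the relation was not tested.

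Dlx3 and Dlx4 were low in all lines. Dlx3, a regulator of epidermal and hair differentiation, was highest in MCA-972, with 0.0521 CPM in 2G, 0.491 in a-1, 0.367 in a-1G and 0.167 in a-R. In MCA-943 it had 1 count over 4 tumors, in a-1G. The tumors of MCA-970 ranged from 0.0598 to 0.315 CPM, those of MCA-969 from 0 to 0.183 and those of MCA-948 from 0.0250 to 0.183, so these lines and MCA-972 overlapped. The keratinocyte markers of MCA-972 summed to 1.45 to 2.62 CPM, within the range of the other lines. Dlx3 did not pass the filter, and 13 of the 30 tumors had more than 3 counts.

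Dlx4, known from placenta and blood cells, had between 1 and 14 counts per tumor. In MCA-943 it averaged 0.0448 CPM ± 0.0183 (SD, n = 4), from 0.0247 to 0.0678, and between 0.152 and 0.215 CPM in the other lines. MCA-969 ranged from 0.0480 to 0.335 CPM, MCA-948 from 0.0531 to 0.270, MCA-970 from 0.0242 to 0.515 and MCA-972 from 0.0521 to 0.196, all overlapping each other and MCA-943.

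Dlx5 and Dlx6, regulators of jaw, limb and bone formation, were at or near 0. Dlx5 had 0 counts in all 4 MCA-943 tumors and at most 5 in any tumor, MCA-970 having the highest level at 0.150 CPM. Over the 30 tumors it had 40 counts, and 1 tumor had more than 3. Dlx6 had 0 counts in all MCA-943 and MCA-948 tumors, 11 counts in all and at most 2 in 1 tumor. For a single MCA-943 tumor at 0 counts, the limit of 3 counts was 0.0906 CPM on average. Lower levels could still give counts, as Dlx4 did in that line at 0.0247 to 0.0678 CPM. No fold is given for Dlx5 or Dlx6, since most tumors had 3 counts or fewer.

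**Figure D3:**
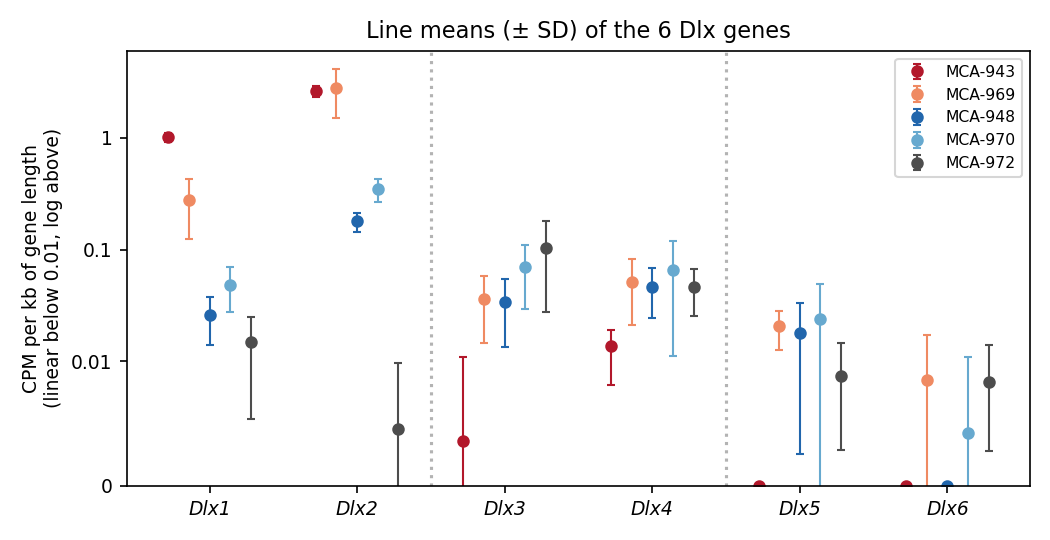
Line means of the 6 Dlx genes in CPM per kb of gene length, on an axis that is linear below 0.01 and logarithmic above, with 1 point per line and bars of ± SD over its tumors, cut at 0; dotted lines part the 3 genomic pairs. Dlx2 reaches 2.60 and 2.79 CPM per kb in MCA-943 and MCA-969, and the means of Dlx3 to Dlx6 stay at or below 0.103.

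Each pair has an annotated antisense transcript. The counting is not stated to use strand, so reads of a gene and of its antisense partner where they overlap cannot be told apart. Counts assigned to Dlx1as, which overlaps Dlx1, came to 26 in all, with 13 of them in the 4 MCA-943 tumors, at 2 to 5 counts each, and 9 in MCA-969. Dlx6os1, which spans Dlx6, had 19 counts, 11 of them in MCA-972. Dlx4os had 13 and Dlx6os2 had 1.

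The title letters, which the choice of the family did not use, were compared over 26 tumors within the lines that have both, 4 in all. edgeR called 0 members, beside 0.272% of the 16557 genes tested; at an unadjusted p-value under 0.05 there was 1 member of 3, Dlx4, among 1217 genes, and DESeq2 gave the same counts of members, 0 adjusted and 1 unadjusted. Dlx1 differed by 0.01 (SE 0.28) and Dlx2 by 0.04 (SE 0.20) on the log2 scale, letter a minus letter W, both with an adjusted p-value of 0.999 by edgeR. Normal 95% intervals ran from -0.53 to 0.56 for Dlx1 and from -0.35 to 0.43 for Dlx2, and the sign of both depended on the setting. Dlx4 was lower with the letter a by a log2 value of -1.15 (SE 0.29), with an unadjusted p-value of 0.00052 and an adjusted p-value of 0.12 by edgeR, so it did not pass the correction over all genes.

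The means of Dlx4 were lower with the letter a in 4 of 4 lines. In MCA-970 they were 0.0986 CPM with a and 0.332 with W, in MCA-969 0.108 and 0.229, and in MCA-948 0.109 and 0.197. The tumors with a and W overlapped in each of these 3 lines. In MCA-943 the single W tumor, at 0.0678 CPM, was above the 3 others, at 0.0247 to 0.0490. Together these means rest on 47 counts over 14 tumors with the letter a and 92 counts over 12 with W. In 2 lines the letter partly follows the run of library numbers, the 2 tumors of the smaller run being W in MCA-969 and a in MCA-948. Dlx4 averaged 0.245 CPM in these 2 MCA-969 tumors and 0.143 in the other 6, and 0.150 and 0.153 in the 2 and 6 of MCA-948. The letter effect differed between lines for 3 of 16557 genes, none of them a member, and the adjusted p-values of Dlx1, Dlx2 and Dlx4 for that interaction were 0.90, 0.99 and 0.93 by edgeR.

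**Figure D4:**
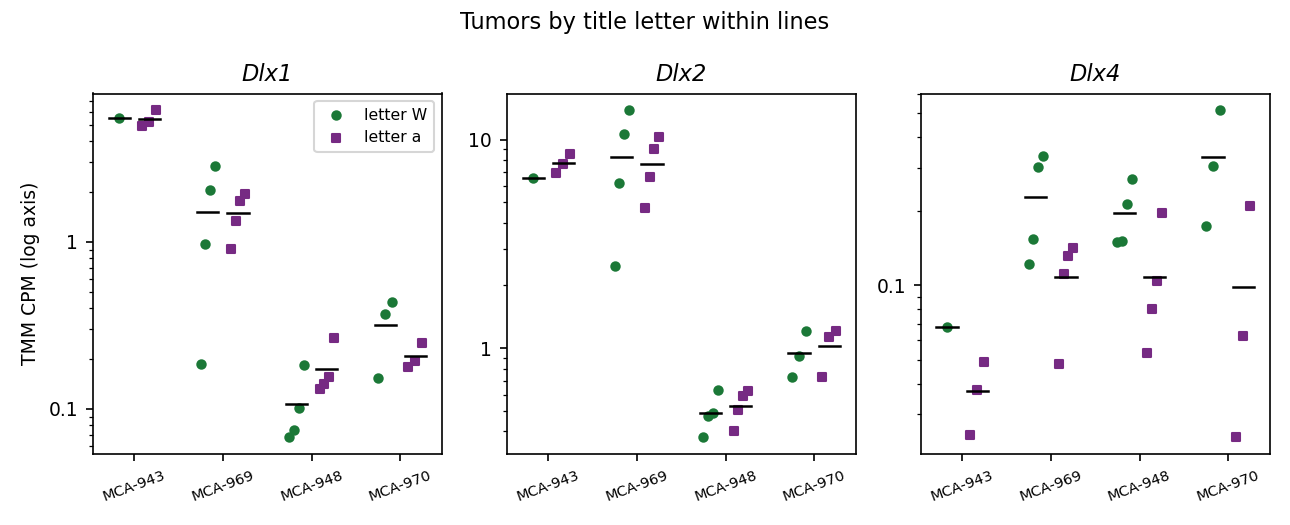
TMM CPM (logarithmic axes) of Dlx1, Dlx2 and Dlx4 in the 26 tumors of the 4 lines with both title letters; circles are W, squares are a, and bars are means. The letters intermix for Dlx1 and Dlx2 in MCA-948, MCA-969 and MCA-970, while in MCA-943 the single W tumor has Dlx2 at 6.57 CPM, below the 3 others at 6.93 to 8.50. The mean of Dlx4 is lower with a in each of the 4 lines, with overlapping tumors except in MCA-943.

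The runs of library numbers and the lines are partly confounded, since MCA-943, MCA-970 and MCA-972 each lie in 1 run. In MCA-948, Dlx2 was at 0.608 CPM on average in the 2 tumors of one run and at 0.479 in the 6 of another. In MCA-969 it was at 8.45 CPM in the 6 tumors of one run and at 6.56 in the other 2, W-1D at 10.7 and W-2D at 2.48. Dlx1 averaged 0.144 and 0.139 CPM in these 2 and 6 MCA-948 tumors, and 1.62 and 1.11 CPM in the 6 and 2 MCA-969 tumors. A line that lies within 1 run gives no comparison of runs within itself, but each of these lines shared its run with tumors of another line. In the run of MCA-943, Dlx2 was at 6.57 to 8.50 CPM there and at 0.374 to 0.633 in the 6 MCA-948 tumors. In the run of MCA-972 it was at most 0.0278 CPM there and 4.71 to 13.9 in the 6 MCA-969 tumors. Whether the run affected these levels was not tested.

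Neither gene next to Dlx1 and Dlx2 was called higher in both non-sensitive lines in all 6 comparisons. Metap1d, a mitochondrial methionine aminopeptidase gene 2.92 kb from Dlx1, had means from 20.3 to 30.6 CPM, a spread of 0.59 on the log2 scale that was under the threshold of 1. Itga6, the laminin-binding integrin alpha 6 gene 199 kb beyond Dlx2, was called (adjusted p = 1.3e-16, edgeR), with 172 CPM ± 12.2 (SD, n = 4) in MCA-943, 188 ± 31.3 (SD, n = 8) in MCA-969, 121 ± 22.2 (SD, n = 8) in MCA-948 and 109 ± 20.04 (SD, n = 6) in MCA-970. In MCA-972 it was at 11.95 ± 1.81 (SD, n = 4), the line in which Dlx2 was also lowest. Within 500 kb of the pair, 10 genes other than Dlx1 and Dlx2 were tested, Metap1d and Itga6 included. Of these 10, 5 were called among the lines and 0 were called higher in all 6 comparisons, against 58% and 0.652% of all genes.

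Beside Dlx3 and Dlx4, Itga3, the integrin alpha 3 gene, was called (adjusted p = 3.8e-12, edgeR), from 22.9 CPM in MCA-943 to 92.9 in MCA-948, and Tac4, a tachykinin gene, was near 0 in every line. Beside Dlx5 and Dlx6, Sdhaf3, an assembly factor of succinate dehydrogenase, was called (adjusted p = 2.4e-07, edgeR), from 3.13 CPM in MCA-948 to 6.30 in MCA-969. Sem1, a proteasome subunit gene, had a spread of 0.44 and was not called. Within 500 kb of these pairs, 7 of 16 and 2 of 3 genes tested were called, and 0 were called higher in all 6 comparisons.

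**Figure D5:**
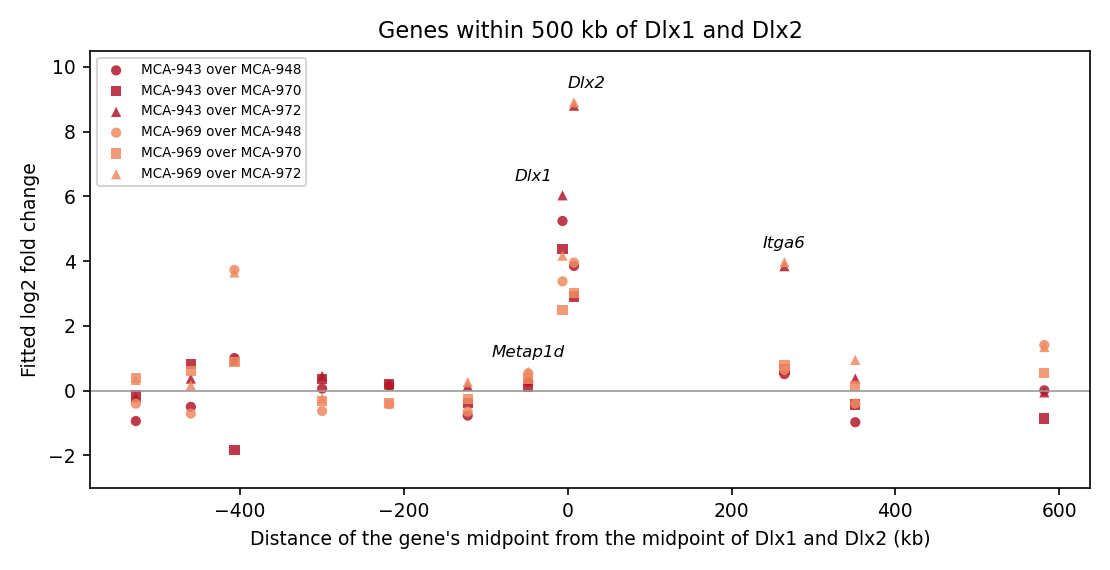
Fitted log2 fold change of the 2 Dlx genes and the 10 other genes tested within 500 kb, in each of the 6 pairings of a non-sensitive and a sensitive line, against the distance of the gene's midpoint from that of the pair in kb; color is the non-sensitive line and shape the sensitive line. All 6 values are above 2 for Dlx1 and Dlx2, and for Itga6 only the comparisons with MCA-972, at 3.85 and 3.97, are above 1. Among the other neighbors, Cybrd1 reaches 3.73 and 3.65 in MCA-969 against MCA-948 and MCA-972, and -1.83 in MCA-943 against MCA-970.

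Over the 30 tumors, the genes with log2 CPM most like Dlx1 were 6330403K07Rik (r = 0.960), Nav1 (r = 0.949) and Gm10421 (r = 0.928). Those most like Dlx2 were Slc16a13 (r = 0.944), Apobr (r = 0.938) and Sh3bp5 (r = 0.930). These values describe a likeness that tumors of the same line share, and come from the same 30 libraries. 6330403K07Rik, for example, was at 4.66 CPM in MCA-943, 0.868 in MCA-969 and at most 0.0744 on average in the others, the order of the first lines of Dlx1. Slc16a13, a gene of the monocarboxylate transporter family, was at 10.4 CPM in MCA-969, 8.82 in MCA-943 and 1.62 in MCA-972. The partners themselves had r = 0.863; Dlx2 ranked 45 among the 16861 genes most like Dlx1, and Dlx1 ranked 32 for Dlx2. The genes most like Dlx4 were Inca1 (r = 0.729), Adm (r = 0.705) and Serinc4 (r = 0.692).

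Genes known to act with Dlx factors elsewhere were at different levels in the lines, with no single order of lines. Of 11 regulators of Dlx genes, 9 were tested and 6 called, beside 58% of all genes; the median spread of the line means was 3.13 on the log2 scale, against 1.19 over all genes. Bmp4, a bone morphogenetic protein that induces Dlx genes in the embryo, was lowest in MCA-943, at 0.147 CPM ± 0.084 (SD, n = 4), and highest in MCA-972, at 17.2 ± 6.12 (SD, n = 4). Bmp7 was highest in MCA-969, at 14.05 ± 9.15 (SD, n = 8), and at 0.270 CPM in MCA-943. Trp63, which regulates Dlx genes in epidermis, was at 1.14 CPM in MCA-943 and 0.108 in MCA-969. No regulator was called consistently higher or lower in the 6 comparisons.

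Of 16 genes of jaw, limb and bone, 11 were tested and 8 called, with a median spread of 3.41. Pitx1, a homeobox gene of the hindlimb and jaw, was at 4.996 CPM ± 2.73 (SD, n = 8) in MCA-969 and had 0 counts in the tumors of the other 4 lines. Hand2 was highest in MCA-970, at 6.00 CPM ± 1.03 (SD, n = 6), and Alx4 in MCA-972, at 2.55 ± 0.568 (SD, n = 4), and both had 0 counts in MCA-943. Sp7, a bone transcription factor, was at 0.842 CPM ± 0.942 (SD, n = 8) in MCA-969, or 0.519 ± 0.246 (SD, n = 7) without W-R at 3.10 CPM, and at most 0.189 on average elsewhere. Of 10 genes of forebrain interneurons, 7 were tested and all 7 called, with a median spread of 3.11. Gad1, a GABA-synthesizing enzyme, was at 7.78 CPM ± 3.52 (SD, n = 8) in MCA-969 but at 0.0585 in MCA-943. Gad2 was at 0.783 CPM in MCA-969, or 0.505 ± 0.208 (SD, n = 7) without W-1D at 2.73 CPM, and at 0.0062 in MCA-943. Lhx6 was highest in MCA-943, at 24.2 CPM ± 2.84 (SD, n = 4), against 8.29 in MCA-969. None of the genes of either list was called higher, or lower, in all 6 comparisons.

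Of 11 genes of epidermis, hair, tooth and placenta, 3 were tested and called, with a median spread of 2.78. Gata3 averaged 12.2 CPM ± 1.61 (SD, n = 4) over the MCA-943 tumors and 0.350 over those of MCA-969, Lef1 at 2.04 and 13.96, and Krt10 at 1.84 and 2.21. Msx genes encode homeodomain proteins that can pair with Dlx proteins, and all 3 were called, with a median spread of 4.64. Msx1 was highest in MCA-970, at 8.32 CPM ± 2.47 (SD, n = 6), Msx2 in MCA-972, at 5.74 ± 1.21 (SD, n = 4), and Msx3 in MCA-943, at 1.97 ± 0.247 (SD, n = 4).

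Hox clusters share their chromosomes with the Dlx pairs. All Hox genes tested were called, 5 of 9 Hoxd genes being tested, 8 of 10 Hoxb and 10 of 11 Hoxa, with median spreads of 2.26, 6.62 and 4.77. Among them, and among the genes of all 8 lists, 1 gene was called higher in all 6 comparisons. This was Hoxa7, at 18.3 CPM ± 2.54 (SD, n = 4) in MCA-943, 17.2 ± 4.13 (SD, n = 8) in MCA-969 and 3.19 ± 0.681 (SD, n = 6) in MCA-970, the highest of the sensitive lines. Hoxa9, Hoxa10 and Hoxa11 were high in MCA-969 and MCA-970, Hoxa10 at 13.2 and 28.7 CPM, and at most 0.0724 CPM on average in the other lines. Hoxb9 was highest in MCA-970, at 57.4 CPM ± 3.30 (SD, n = 6), and averaged 15.4 CPM in MCA-969 and 2.39 in MCA-948. Hoxb2 and Hoxb3 were lowest in MCA-943, at 0.0792 and 0.138 CPM. Hoxb6 was low in both MCA-943 and MCA-972, at 0.165 CPM ± 0.126 and 0.171 ± 0.0756 (SD, n = 4 each). On chromosome 2, Hoxd3 was between 0.0201 CPM in MCA-972 and 0.374 in MCA-969, Hoxd4 was highest in MCA-969 at 1.95, and Hoxd9 and Hoxd10 were highest in MCA-948 at 8.45 and 1.19.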

How the data were processed

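The members and gene lists were chosen with earlier results of these data known. The authors used STAR 2.5.3a with GRCm38 for alignment and featureCounts for counting (1.5.2 in the submitters' notes, another version in the methods). The column names state a removal of duplicates by molecular identifiers. Deposited values are raw counts per gene; the table's gene length is in bases. Samples were grouped by the line in their titles.

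Counts were normalized with edgeR 4.0.16 (TMM, R 4.3.3) and filtered with filterByExpr, which kept 16862 genes, and a robust quasi-likelihood model of the line was fitted to 30 tumors (biological coefficient of variation 0.221). The letters were fitted with the line as covariate. Log2 CPM used a prior count of 2. Each SE is the size of the fitted log2 fold change divided by the square root of its quasi-likelihood F statistic, and the normal intervals use it. Alternatives were DESeq2 1.42.0, its size factors, other filters, the run, the tumor code and leaving out each tumor. The fits were tested on simulated data. Permutation tests were exact (Python, scipy 1.17.1). Named genes were the members, antisense transcripts, nearest protein-coding genes, the 3 most correlated genes per member, and in each list the genes called in all 6 comparisons and up to 4 with the largest spread; 2 of these genes are not reported here. Tumor codes did not pair the samples. Nothing states that tumors of a line came from separate cultures, so p-values measure the spread between these tumors.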

Additional observations from a re-analysis of the deposited data

How the results depend on the processing

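Calls of members among the lines rest on the values that chose the family, so their counts are given here and nothing is read from them. With no filter on low counts 5 members were called among the lines, adding Dlx3, Dlx5 and Dlx6, which have lines at or near 0 counts. Of the 32805 genes with at least 1 count, 13016 were called in that setting. With the tumor code as a replicate block 3 were called, Dlx4 being added, beside 9272 of the 16862 genes tested. Leaving out 1 tumor gave 2 to 4 members, 4 without MCA-972 2G (Dlx3 and Dlx4 added), and 9706 to 10098 genes in all. Dlx3 was added wherever leaving out a tumor let it pass the filter. Why Dlx4 was added was not tested. Same-numbered tumors of different lines did not deviate together (median r = 0.025 over 29 pairs, from -0.43 to 0.41). With a mean of at least 1 CPM, 70 genes were called higher and 25 lower in all 6 comparisons, and with the run as covariate 66 and 16. The letter gave 94 genes with DESeq2, 4 with a mean of at least 1 CPM and 0 members throughout; the letter difference of Dlx1 turned to -0.0032 with DESeq2 size factors, -0.0055 with a mean of at least 1 CPM and -0.11 with the run as covariate, and that of Dlx2 to -0.077 with the run. Leaving out 1 tumor moved the letter difference from -0.147 (without MCA-969 W-2D) to 0.189 (without MCA-969 W-R) for Dlx1 and from -0.0692 to 0.166, without the same tumors, for Dlx2. Of the lists, the jaw, limb and bone genes called came to 3 and the Hoxd genes to 2 with a mean of at least 1 CPM, which leaves fewer genes to test, and the genes of epidermis, hair, tooth and placenta to 5 with no filter. For Dlx4 the adjusted p of the letter ran from 0.061 to 0.25 over the 26 alternatives that tested it (edgeR and DESeq2). In the other alternatives, a mean of at least 1 CPM among them, Dlx4 did not pass the filter.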
